A study of Mus musculus with 8 samples.

Results

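The regions described here are those annotated to 10 genes of the AP-1 family and the immediate-early response, Fos, Fosb, Fosl1, Fosl2, Jun, Junb, Jund, Atf3, Egr1 and Maff. They were taken by gene name from a table of ATAC-seq regions, in which 82 of 489637 regions carried one of these names. Of the 82, 44 had enough signal to be tested, among 124901 tested regions in all. Maff had 22 listed regions (13 tested), Fosl2 20 (13), Atf3 12 (3), Fosb 8 (5), Fosl1 6 (1), Jun 4 (2), Junb 3 (3), Egr1 3 (2), Fos 3 (1) and Jund 1 (1). The 38 regions not tested had a signal of at most 25.0 in any library. All of the mice had the genotype Cre+:iMSBmal1 fl/fl, so the controls carried the Cre and the floxed alleles too. The Vehicle group (4 libraries) received vehicle, the iMSBmal1KO group (4 libraries) was given tamoxifen, and gastrocnemius, a calf muscle, was taken at 6 months. The name iMSBmal1KO stands for an inducible, muscle-specific loss of Bmal1, the clock transcription factor that the table lists as Arntl, and the labels do not name the promoter that drives the Cre. The titles of both groups carry the word Control, and the groups were taken from the treatment. The comparison asks which chromatin differed after tamoxifen, and drug and deletion cannot be told apart.

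AP-1 is a dimeric transcription factor built from basic leucine zipper proteins. FOS proteins (Fos, Fosb, Fosl1 and Fosl2) do not form stable dimers with themselves and pair with JUN proteins (Jun, Junb and Jund), which can also pair among themselves. Atf3 is a stress-induced member of the same wider class, Maff is a small MAF protein without a transactivation domain, and Egr1 is a zinc finger factor induced by many of the same signals. Transcription of most of these genes rises within minutes of a stimulus, such as contraction in muscle, from promoters that are already open, through serum response factor and CREB bound near the start. BMAL1 itself binds E-boxes together with CLOCK.

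The libraries held 4.31 to 29.5 M read equivalents each, and Vehicle 4 was the shallowest, with a mitochondrial share of 16.5% against 1.11% at the lowest. The tissue label matched the markers: tested promoters of fibre genes had a median signal percentile of 99.0 among all tested promoters, against 34.2 for satellite cells, 42.9 for fibro-adipogenic cells, 18.8 for endothelial cells and 32.3 for smooth muscle and pericytes. With signal summed over all regions of a gene, the percentiles were closer: 97.3 for fibres, 56.8, 51.5, 61.8 and 57.2 for those lists in the same order, and 20.1 for leukocytes. For leukocytes, 3 of 6 markers had a listed promoter region and 1 was tested, C1qa, a complement gene of macrophages. The summed signal of each of the 6 marker lists overlapped between the groups. The summed signal of Arntl was 1942 to 2688 in Vehicle and 3023 to 3421 in iMSBmal1KO (log2 change 0.46, limma adjusted p = 0.374), but the labels do not say which exon is floxed, so it does not check the deletion. In libraries from whole muscle, fewer nuclei of a type and less accessibility per nucleus cannot be told apart.

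Promoter sequences are shown because the members are induced from their promoters. RefSeq promoter windows of GRCm38.p6, from 250 bases before to 50 after a start, were found for 8 of the 10 genes, Fosl1 and Egr1 being the others (10 windows), and 5 of the windows lay wholly inside a tested open region. Shown first, 5′ to 3′ on the gene's strand, are the 250 upstream bases of the Fos, Jun, Junb and Atf3 windows, which lay wholly inside open regions. For Maff, 30 bases are shown around the sole full CRE among the member windows (Maff a) and around a variant of it in another window (Maff b). Capitals mark the CRE, TGACGTCA, to which CREB and ATF proteins bind, its part TGACG or CGTCA, and the variant TGACATCA.
Fos chr12:85473640-85473889, plus strand: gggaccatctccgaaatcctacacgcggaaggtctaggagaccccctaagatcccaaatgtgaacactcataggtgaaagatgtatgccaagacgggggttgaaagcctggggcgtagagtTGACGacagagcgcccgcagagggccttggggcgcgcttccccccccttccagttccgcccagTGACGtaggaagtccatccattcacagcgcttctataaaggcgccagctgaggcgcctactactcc
Jun chr4:95052223-95052472, minus strand: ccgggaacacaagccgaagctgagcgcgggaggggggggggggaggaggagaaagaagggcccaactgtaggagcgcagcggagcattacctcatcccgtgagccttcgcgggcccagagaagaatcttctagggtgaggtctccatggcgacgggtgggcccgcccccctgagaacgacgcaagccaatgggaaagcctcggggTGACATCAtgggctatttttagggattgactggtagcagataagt
Junb chr8:84978749-84978998, minus strand: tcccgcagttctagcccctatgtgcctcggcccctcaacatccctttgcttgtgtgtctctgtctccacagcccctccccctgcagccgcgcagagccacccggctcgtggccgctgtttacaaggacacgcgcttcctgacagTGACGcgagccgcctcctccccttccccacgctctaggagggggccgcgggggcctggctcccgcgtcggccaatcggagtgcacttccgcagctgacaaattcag
Atf3 chr1:191183334-191183583, minus strand: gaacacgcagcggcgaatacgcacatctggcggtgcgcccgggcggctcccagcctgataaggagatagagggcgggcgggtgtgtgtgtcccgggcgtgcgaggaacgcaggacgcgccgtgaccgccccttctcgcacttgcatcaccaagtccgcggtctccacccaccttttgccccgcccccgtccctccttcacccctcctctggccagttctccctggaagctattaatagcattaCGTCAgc
Maff a chr15:79347480-79347509, plus strand: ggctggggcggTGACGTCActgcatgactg
Maff b chr15:79348346-79348375, plus strand: ctggagccatgTGACATCAgtgtttgttcc

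On either strand of the 300-base windows, the AP-1 site (TGAGTCA or TGACTCA) was in 0 of 10 member windows and in 5.21% of all 32817 RefSeq windows. The full CRE was in 1 member window, that of Maff, and in 1.79% of all windows. TGACG or CGTCA, which also counts the ends of the full CRE, was in 6 member windows, belonging to Fos, Fosb, Junb, Atf3 and Maff, and in 20.8% of all windows. The Fos copies began at -129 and -66 from the start, the Fosb copy at -60, the Junb copy at -106 and the Atf3 copy at -7. The variant TGACATCA (or TGATGTCA), which was chosen after the sequences were seen, began at -45 in both Jun and Maff b, and 3.62% of all windows held it. The CArG box, the site of serum response factor, was in 0 of 10 member windows and in 1.63% of all. The E-box CACGTG was in 1 member window, at -191 in that of Maff a, and in 7.15% of all windows. The GC content of the member windows was 46.7% to 68.3%, against a median of 52.7% for all windows. The Jund window, which had the lowest GC content, and the Maff window beginning at 79346371 overlapped 0 tested regions. The strongest region in the Fosl2 window had a Vehicle mean of 22.2. The member counts thus also cover sequence outside the strongly open regions. All counts are matches of letters in a short window and no measure of binding.

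In Vehicle muscle the genes differed widely in how open they were. At the strongest tested region of each gene, deposited signal per kb of region had a Vehicle mean of 1984 at Jund and 1763 at Atf3, then 1336 at Fosl2, 1165 at Egr1, 1040 at Junb, 977 at Fos and 866 at Fosb. It was 415 at Jun, 379 at Maff and 53.2 at Fosl1. The order held in all 8 libraries for Jund above Atf3, Atf3 above Fosl2, Fosb above Jun, and Maff above Fosl1. The neighbours Junb and Fos were in this order in 4 of 8 libraries and Jun and Maff in 5, so neither pair differed beyond its spread. The ranges of the 4 Vehicle libraries overlapped between neighbours except for Atf3 above Fosl2, Fosb above Jun, and Maff above Fosl1. By signal, 8 of the strongest regions lay above at least 90.9% of all tested regions, that of Jun above 82.1% and that of Fosl1 above 3.65%. Within the regions that the table names for a gene, the signal was concentrated at the start in some genes and spread out in others. The strongest region held 97.4% to 99.5% of the gene's summed signal at Egr1 over the 8 libraries, 93.7% to 98.7% at Fos, and 28.4% to 43.3% at Maff. Of the 44 tested regions, 22.7% lay in coding exons and 4.55% in introns, against 4.53% and 29.5% of all tested regions. The members were taken by gene name and hold no intergenic regions, which all tested regions include. Some of the genes also have no introns, so these shares depend on the choice of genes.

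**Figure D1:**
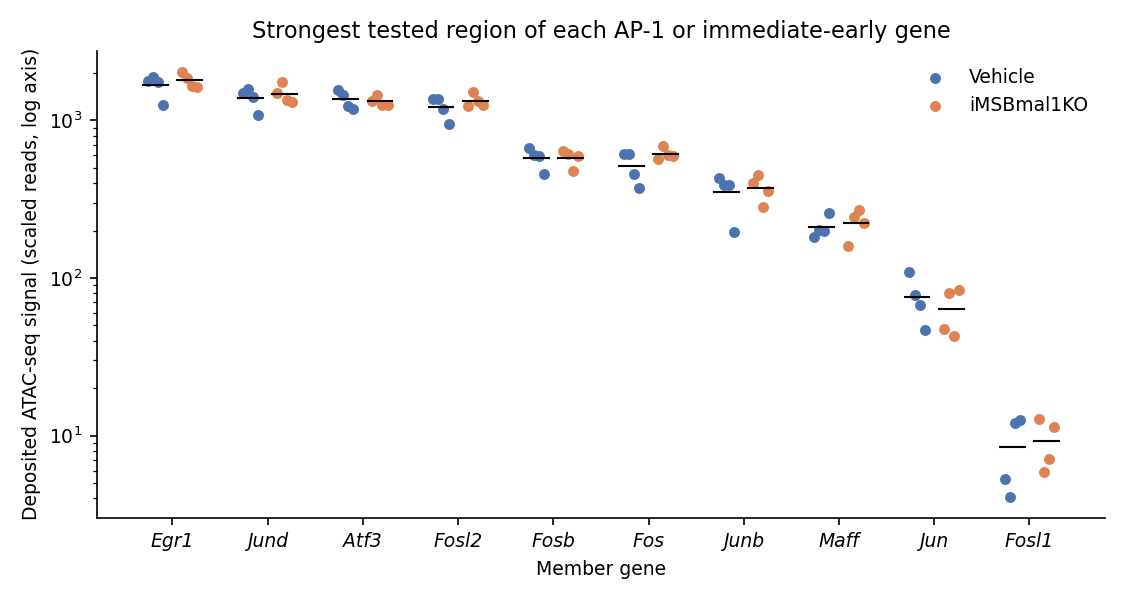
Deposited signal (log axis) at the strongest tested region of each of the 10 genes, ordered by Vehicle mean. Each point is a library, placed from left to right as replicates 1 to 4, and the lines are group means. Egr1 reached 2027 and Fosl1 no more than 12.8, the Vehicle 4 point is the lowest of the 8 at 7 of 10 genes, and the groups overlapped at every gene.

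No region of these genes passed the test for a difference between iMSBmal1KO and Vehicle. By limma with Benjamini-Hochberg adjustment over all regions, 0 of 44 regions were called, against 0.0881% of all tested regions, and the smallest limma adjusted p was 0.508. At an unadjusted limma p under 0.05 there was 1 of 44, against 9.22% of all tested regions. The groups did not overlap at 2 of 44, against 5.48%, and at both the iMSBmal1KO libraries were higher, which held at 3.62% of all tested regions. The log2 change was above 0 at 31 of 44, against 62.0% of all, and its median was 0.14, against 0.12 for all tested regions. With the signal summed over each gene, 0 of 10 genes were called (0.130% of all genes by limma), and 0 had an unadjusted limma p under 0.05 (9.48% of all). The groups overlapped at all 10 genes (they did not at 4.94% of all), estimates were above 0 at 6 of 10 (66.6% of all), and the median log2 change was 0.05 against 0.11. With the signal within 1000 bp of a start, 0 of 9 tested promoters were called (0.0790% of all promoters by limma), and 0 had an unadjusted limma p under 0.05 (10.1% of all). The groups overlapped at all 9 (they did not at 4.49% of all), estimates were above 0 at 6 of 9 (72.8% of all), and the median was 0.09 against 0.15. The signs depended on the scaling: with median-of-ratios factors estimates were above 0 at 25 of 44 regions (51.0% of all), 3 of 10 genes (48.2%) and 3 of 9 promoters (55.9%), with member medians of 0.03, -0.07 and -0.02. With limma-voom they were above 0 at 21 of 44 regions (51.0% of all), 2 of 10 genes (51.0%) and 2 of 9 promoters (58.0%). Part of these shifts moved with Vehicle 4: without it the medians were 0.03 for the members' regions and 0.04 for all regions, -0.04 and 0.05 for genes, and -0.02 and 0.07 for promoters. Vehicle 4 was the lowest library at 7 of the 10 strongest regions, and at 57.9% of all 22409 tested regions with signal at least as high as the weakest of these regions other than that of Fosl1.

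Among the FOS genes, Fos, the founding member and the most used marker of recent stimulation, had the highest estimate for the summed signal. Its start region, chr12:85473545-85474067, had a signal of 608, 611, 454 and 372 in Vehicle 1 to 4 and 571, 686, 599 and 593 in iMSBmal1KO 1 to 4. The groups overlapped, because Vehicle 1 and 2 were as high as the iMSBmal1KO libraries and Vehicle 3 and 4 were low. The means were 511 ± 118 and 612 ± 50.5 (SD, n = 4 each), a log2 change of 0.29 (95% interval -0.12 to 0.69, limma adjusted p = 0.631), and it was 0.14 without Vehicle 4. The 2 other regions listed for Fos had too little signal to test.

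Fosb, whose product also has a truncated splice form, had its strongest region in a coding exon, chr7:19308190-19308859, at 1185 bp from the start, and not at the start. The signal there was 667, 602, 592 and 460 in Vehicle and 642, 612, 476 and 592 in iMSBmal1KO, with means of 580 in both groups. The log2 change was 0.00 (95% interval -0.38 to 0.39). The region that the table assigns to the Fosb start, chr7:19310159-19310503, lay at -112 bp from the annotated start and did not cover the RefSeq start. The means there were 236 ± 32.8 and 233 ± 35.5 (SD, n = 4 each), and here too the groups overlapped. Estimates at the 5 tested Fosb regions ran from -0.42 to 0.32 in log2.

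Fosl1, which encodes FRA-1, was nearly closed. Its single tested region, in intron 1 at chr19:5448831-5448990, had a signal of 5.33, 4.11, 12.1 and 12.5 in Vehicle and 12.8, 5.85, 7.16 and 11.3 in iMSBmal1KO. Summed over its 6 regions, the signal was 30.9, 43.2, 48.3 and 71.9 in Vehicle and 48.4, 30.9, 25.0 and 40.1 in iMSBmal1KO. The highest value was that of the shallowest library. The log2 change of the sum was -0.40 (95% interval -0.98 to 0.19, limma adjusted p = 0.612), the lowest estimate among the 10 genes, and it was -0.19 without Vehicle 4.

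Fosl2, which encodes FRA-2, was the most open FOS gene. Its start region, chr5:32135210-32136116, had a signal of 1359, 1362, 1173 and 954 in Vehicle and 1228, 1518, 1330 and 1254 in iMSBmal1KO, so the groups overlapped. The log2 change was 0.15 (95% interval -0.21 to 0.50), 0.0363 without Vehicle 4 and 0.00213 with limma-voom. Estimates were above 0 at 11 of its 13 tested regions, several of which are neighbouring pieces of 1 exon. The start region covers a start that the table annotates and not the RefSeq start of Fosl2. The tested region over that RefSeq start, chr5:32136426-32136480, had a Vehicle mean of 10.1.

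The lowest p among all member regions was in a part of Fosl2 annotated as 3′ UTR exon, chr5:32155535-32155716. The signal there was 37.3, 39.0, 47.0 and 31.3 in Vehicle and 48.8, 67.7, 53.7 and 66.5 in iMSBmal1KO. Every iMSBmal1KO library was above every Vehicle library. The means were 38.7 ± 6.50 and 59.2 ± 9.39 (SD, n = 4 each), and the log2 change was 0.60 (95% interval 0.08 to 1.13). It was the 1 member region with an unadjusted p under 0.05, and with a limma adjusted p of 0.508 it did not pass. At an intronic Fosl2 region, chr5:32142979-32143105, the signal was 14.9, 21.6, 21.6 and 6.25 in Vehicle and 33.4, 20.1, 23.9 and 25.1 in iMSBmal1KO, with overlap (log2 change 0.75, limma adjusted p = 0.547, and 0.38 without Vehicle 4). At chr5:32135138-32135209, which abuts the start region, Vehicle 4 stood at 18.8 against 75.0 to 105 in Vehicle 1 to 3 and 74.9 to 125 in iMSBmal1KO, and the log2 change of 0.70 became 0.15 without Vehicle 4.

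Among the JUN genes, Jun needs a remark on annotation. The table gave Jun 4 regions, and the strongest was in its coding exon, chr4:95050137-95050318, with a signal of 110, 78.1, 67.4 and 46.9 in Vehicle and 47.5, 80.3, 42.9 and 84.0 in iMSBmal1KO. The groups overlapped (log2 change -0.24, 95% interval -0.85 to 0.37), and the estimate was -0.0409 without Vehicle 1. A second region in this exon, chr4:95050357-95050501, had a Vehicle mean of 16.5 ± 2.81 and an iMSBmal1KO mean of 12.6 ± 4.62 (SD over 4 libraries). The log2 change was -0.42 with a limma adjusted p of 0.694. The summed Jun signal changed by -0.23 in log2 (95% interval -0.70 to 0.24), and by -0.07 without Vehicle 1.

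The open chromatin over the RefSeq start of Jun was annotated to Junos, a gene on the opposite strand that begins beside it. This region, chr4:95052091-95052965, covered the whole Jun promoter window printed above. Its signal was 1759, 1478, 1420 and 991 in Vehicle and 1412, 1528, 1130 and 1333 in iMSBmal1KO. The means of 1412 ± 317 and 1351 ± 168 (SD, n = 4 each) overlapped, with a log2 change of -0.04 (95% interval -0.43 to 0.34, limma adjusted p = 0.951). The single Jun promoter region by the table's own names had a Vehicle mean of 4.80 and was not tested, and the level given for Jun in the order above is that of a coding exon. ATAC-seq reads carry no strand, and the 2 genes cannot be told apart at a shared start.

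Junb and Jund, which are compact genes without introns, were open at the starts that the table annotates. The Junb start region, chr8:84978690-84979027, had a signal of 434, 388, 387 and 197 in Vehicle and 401, 453, 283 and 358 in iMSBmal1KO (log2 change 0.13, 95% interval -0.37 to 0.63). Vehicle 4 was far below the other 3 Vehicle libraries here. The only region of Jund, chr8:70698408-70699107, had a signal of 1502, 1575, 1399 and 1079 in Vehicle and 1499, 1762, 1351 and 1302 in iMSBmal1KO (log2 change 0.09, 95% interval -0.26 to 0.45). Its centre lies 1018 bp downstream of the RefSeq start of Jund, which it does not cover. The RefSeq promoter window of Jund overlapped 0 tested regions. Jund is the JUN gene known for steady rather than induced expression, and it had the highest signal per kb of the 10 genes.

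**Figure D2:**
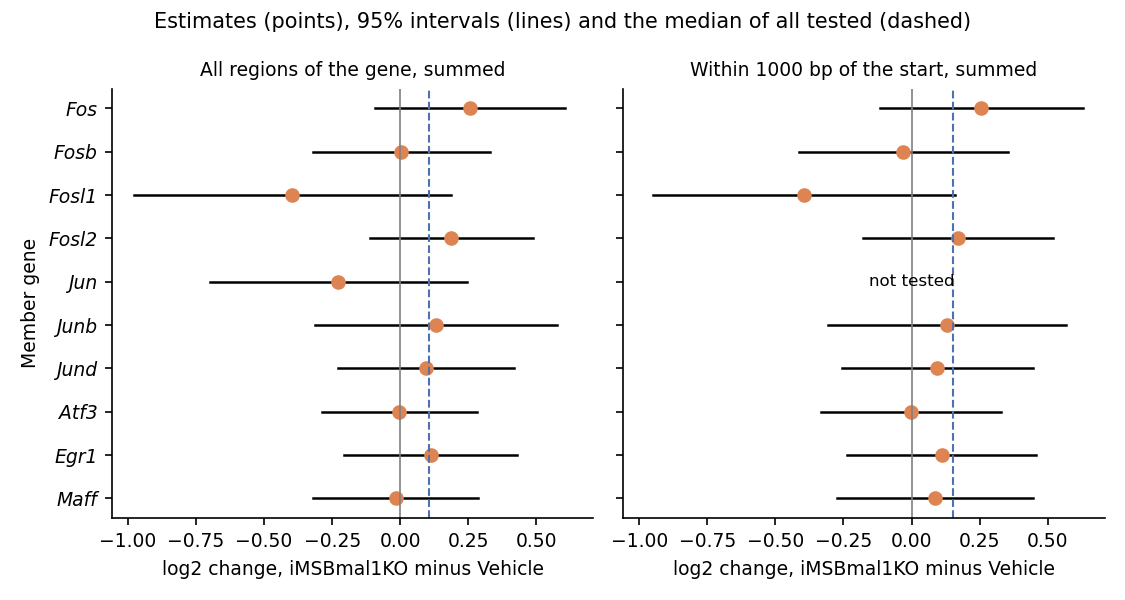
Estimated log2 change of iMSBmal1KO against Vehicle for each of the 10 genes, with 95% intervals from limma, for all regions of a gene summed (left) and for regions within 1000 bp of a start (right). Every interval includes 0, and the dashed line is the median of all tested genes (0.11) or promoters (0.15).

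Of the other 3 genes, Atf3 had an estimate near 0 at a very open start. Its start region, chr1:191183037-191183806, had a signal of 1564, 1452, 1232 and 1182 in Vehicle and 1335, 1443, 1258 and 1258 in iMSBmal1KO (log2 change -0.03, 95% interval -0.37 to 0.31). The iMSBmal1KO values all lay within the Vehicle range. In its 5′ UTR exon, chr1:191182512-191182711, the signal was 138, 129, 143 and 128 in Vehicle and 162, 167, 151 and 154 in iMSBmal1KO. This was the second member region whose groups did not overlap, with means of 135 ± 6.98 and 159 ± 7.23 (SD, n = 4 each) and a log2 change of 0.24 (95% interval -0.17 to 0.65). It did not pass the test (limma adjusted p = 0.693).

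Egr1 had the highest signal of any member region. Its start region on chromosome 18, 1435 bp long, had a signal of 1782, 1889, 1753 and 1260 in Vehicle and 2027, 1845, 1657 and 1631 in iMSBmal1KO. The groups overlapped, with means of 1671 ± 280 and 1790 ± 184 (SD, n = 4 each) and a log2 change of 0.11 (95% interval -0.24 to 0.46, limma adjusted p = 0.840). A weak region just upstream, with a log2 change of 0.07, was the only other tested one.

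Maff had 22 regions, 13 of them tested, and none dominated. Its strongest, chr15:79348084-79348639, had a signal of 181, 202, 200 and 260 in Vehicle and 161, 244, 270 and 223 in iMSBmal1KO (log2 change 0.08, 95% interval -0.37 to 0.52). Vehicle 4 was the highest Vehicle library here. Estimates were above 0 at 8 and below 0 at 5 of the 13. The summed Maff signal changed by -0.02 in log2 (95% interval -0.32 to 0.29). Of the 5 member regions with the smallest p for a lower signal in iMSBmal1KO, 4 belonged to Maff, which held 13 of the 44 tested member regions. The lowest p of these was in a 5′ UTR exon, chr15:79348735-79348907, with 16.0, 22.6, 27.3 and 28.1 in Vehicle and 9.42, 20.1, 15.5 and 15.1 in iMSBmal1KO. The groups overlapped there (log2 change -0.63, limma adjusted p = 0.563). The other 3 of these, beginning at 79351539, 79352631 and 79357911, had log2 changes of -0.30, -0.47 and -0.34. Leaving out each library in turn moved the last 2 between -0.72 and -0.24 and between -0.53 and -0.0764. The full CRE printed above lies in the region chr15:79347463-79347734, with a signal of 61.8, 89.4, 49.6 and 75.0 in Vehicle and 79.6, 71.9, 68.0 and 64.0 in iMSBmal1KO. The groups overlapped there, and the log2 change was 0.07 (95% interval -0.44 to 0.57). Just upstream of it, the region beginning at 79347394 had a Vehicle mean of 14.0 ± 3.30 and an iMSBmal1KO mean of 19.9 ± 4.76 (SD over 4 libraries). The log2 change was 0.48 with a limma adjusted p of 0.633.

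How large a change these libraries leave possible follows from the intervals. At the strongest regions of the 9 genes other than Fosl1, the 95% intervals lay between 0.555 and 1.61 times the Vehicle level. For the summed signal of the 8 genes other than Fosl1 and Jun they lay between 0.800 and 1.52 times. These are the outermost limits over those genes and not the interval of any 1 of them: for the summed signal of Atf3 the interval was 0.819 to 1.21 times, and for that of Fos 0.939 to 1.52 times. The 2 genes left out had wider intervals, 0.616 to 1.18 times for Jun and 0.507 to 1.14 times for Fosl1. All of these intervals hold for the deposited scaling, and other scalings moved the estimates.

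Genes that share the pathway, from 3 lists, were read from the same promoter fit. Of 10 tested AP-1 partners and related basic leucine zipper factors, 0 were called higher and 0 lower by limma (0.0790% of all promoters were called, which holds for the next lists too), with a median log2 change of 0.01 against 0.15 for all promoters. With the signal summed over each gene, 12 of this list were tested, and the median was 0.12 against 0.11 for all genes. The lowest estimate was that of Batf3, a factor of dendritic cells, with 24.5, 23.6, 27.3 and 46.9 in Vehicle and 20.5, 11.7, 22.7 and 22.6 in iMSBmal1KO, a log2 change of -0.62 without overlap and with a limma adjusted p of 0.498. C1qa, the tested leukocyte marker, had 25.6, 13.4, 26.1 and 34.4 in Vehicle and 20.5, 11.7, 10.7 and 6.27 in iMSBmal1KO, with overlap (log2 change -0.99, limma adjusted p = 0.468). The summed promoter signal of the 3 listed leukocyte markers was 19.5 to 37.5 in Vehicle and 18.4 to 25.7 in iMSBmal1KO, and its part in the Batf3 values was not tested. Jdp2, a JUN dimerization partner, stood at -0.17, and Maf, which encodes a large MAF protein, stood at 0.22.

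Of 39 tested other immediate-early genes, 0 were called higher and 0 lower, 3 had an unadjusted limma p under 0.05, all with higher signal in iMSBmal1KO, and the median was 0.18. Of all promoters 10.1% had such a p, most of them (1537 of 1790) with higher signal in iMSBmal1KO. Npas4, an activity-induced transcription factor, had 87.4, 88.4, 67.4 and 62.5 in Vehicle and 118, 118, 106 and 92.8 in iMSBmal1KO. These did not overlap (log2 change 0.51, limma adjusted p = 0.468). Dusp5, a phosphatase of ERK, had a log2 change of 0.41, and Trib1 and Ier3 had -0.30 and -0.22.

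Of 27 tested upstream regulators, such as serum response factor, CREB and the MAP kinases, 0 were called in either direction, and the median was 0.11. Mapk10, which encodes the kinase JNK3, had 22.4, 19.5, 24.8 and 21.9 in Vehicle and 50.5, 55.2, 26.2 and 38.9 in iMSBmal1KO. All iMSBmal1KO values were above all Vehicle values, at low signal, with a log2 change of 0.87 (95% interval 0.30 to 1.44) and a limma adjusted p of 0.393. Crtc3, a CREB coactivator, had 0.37, and the kinase genes Rps6ka1 and Rps6ka5 had -0.34 and -0.20. At Rps6ka1 the groups did not overlap, with 120 to 154 in Vehicle and 105 to 118 in iMSBmal1KO (limma adjusted p = 0.519).

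Regions that the table does not name for a member were also read within 30 kb of the RefSeq starts, a choice made after the data were seen. Of these 141 tested regions 0 were called by limma, 9 had an unadjusted limma p under 0.05, and the smallest adjusted p was 0.387. Of all tested regions 0.0881% were called and 9.22% had an unadjusted limma p under 0.05. Around Fos, the 3 strongest were intergenic, and each had a higher Vehicle mean than the Fos start itself. The region chr12:85454958-85455827, centred at -18498 bp from the start, had a signal of 2066, 1526, 1825 and 1226 in Vehicle and 1603, 1819, 1217 and 1456 in iMSBmal1KO, with overlap and a log2 change of -0.11 (95% interval -0.50 to 0.27). Those at -1504 and 12188 bp had Vehicle means of 558 and 764 and log2 changes of 0.11 and 0.08. That they act on Fos was not tested.

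**Figure D3:**
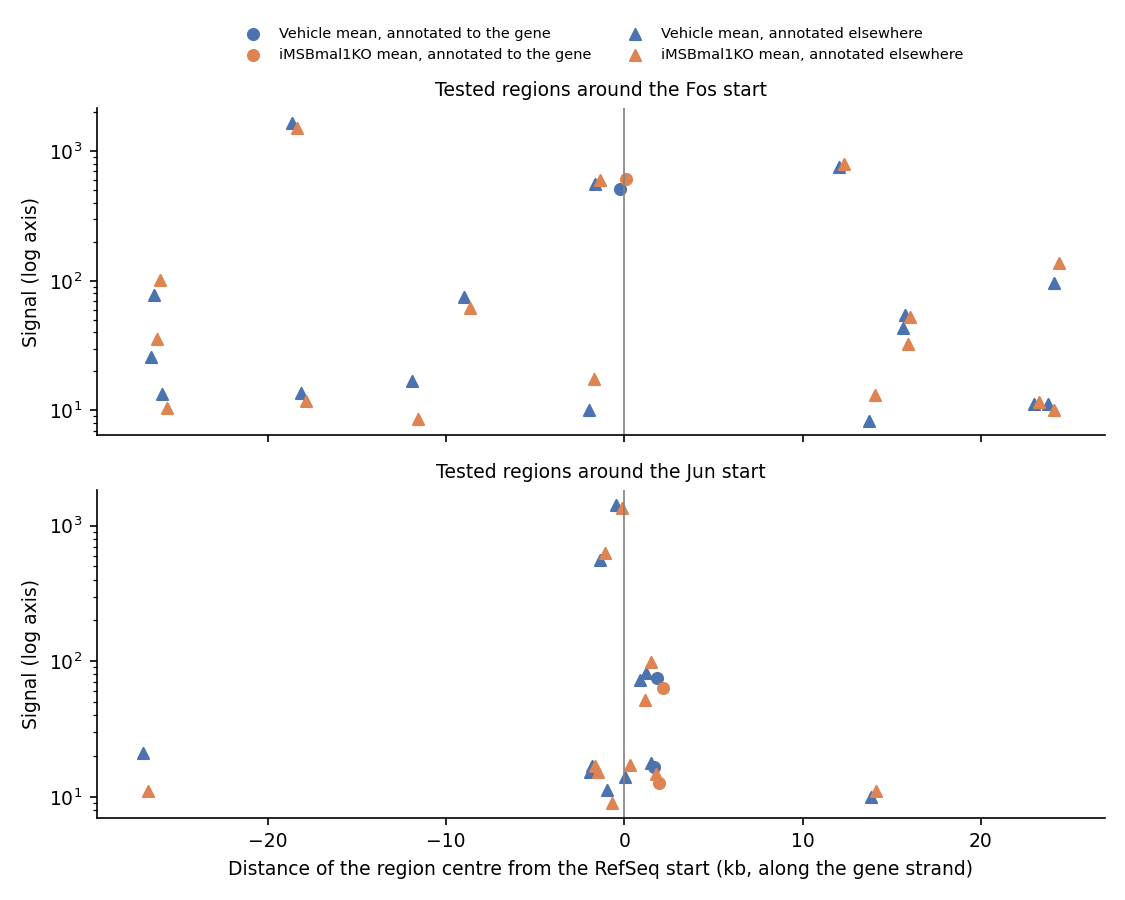
Mean signal (log axis) of every tested region within 30 kb of the RefSeq starts of Fos and Jun, by distance of the region's centre from the start along the gene's strand, with group means drawn slightly apart. Circles are annotated to the gene and triangles are not. The strongest regions, a Vehicle mean of 1661 near Fos and 1412 at the Jun start, are triangles.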

How the data were processed

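Chromatin accessibility was measured by ATAC-seq on nuclei from gastrocnemius homogenates, with 50000 nuclei per library, per the labels' protocols. The submitters' processing notes name Partek, Bowtie2, MACS2 and DESeq2 and the builds mm10 and GRCm39, with no role or order. The settings of the region caller, the handling of duplicates and the shift of reads for the transposase are not given in the sources used here, and each could change the values. The table names no build, but the annotated gene ends, opposite the starts, matched RefSeq GRCm38.p6 within 10 bp for 8 of the 10 genes. The annotated gene starts matched within 10 bp only for Fos and Jun. The RefSeq promoter windows and distances from RefSeq starts therefore need not lie at the starts that the table annotates. Region starts are given as listed, counted from 1, and each printed end is 1 below the listed stop.

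The authors deposited a signal per region and library, not counts: 98.3% to 99.8% of non-zero values were whole multiples of 1 step per library (0.428 to 3.13, tolerance 0.02 reads). Values were therefore treated as reads divided by a factor, and division by this step gave read equivalents. Intervals cover the spread between libraries. The labels do not say that libraries came from separate mice, so p-values may measure technical spread.

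Regions were tested with limma-trend with robust moderation (limma 3.58.1, R 4.3.3) on log2(signal + 1) over 8 libraries, with group as the only term. Log2 changes are on that scale, which understates changes at low signal. Regions needed 0.762 read equivalents per M in at least 4 libraries and 15 in total. Sums per gene (22224 tested) and within 1000 bp of an annotated start (17720 tested) were fitted likewise. P-values were adjusted by Benjamini-Hochberg over everything tested, with a threshold of 0.05. No pairing by replicate number was modelled in the main fit.

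The members, gene lists and tests were chosen with earlier results of these data known. Named were all 10 members, by their strongest tested region and their sums, the 5 member regions of lowest p in each direction, and from each list the 2 genes of lowest p in each direction. A gene that this rule names is not reported here by name, though it stays in the counts. Named after values were seen were the region assigned to the Fosb start, the Atf3 region without overlap, the weak Egr1 region, the Maff region with the CRE, C1qa and the regions annotated to no member. Alternatives were 3 scalings, 2 pseudocounts, no filter, a replicate block, 2 promoter windows, leaving out each library and, chosen after seeing the data, limma-voom. Tables came from Python 3.11.15 with pandas 2.3.3, and matplotlib 3.10.9 drew the figures.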

Additional observations from a re-analysis of the deposited data

Results flagged for a closer look

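At the promoter of Batf3, the signal in Vehicle 4 was 46.9, while Vehicle 1 to 3 lay between 23.6 and 27.3. Its gap to the nearest of them was 0.841 of the group's range, above Dixon's 95% limit for 4 libraries. It was the only such value among 108 group values examined, of which chance alone would give about 5.4. These came from the 54 results named by rule and not from every member region. Single libraries also stood apart outside them. At the weak Egr1 region beginning at 34859667, which was not examined, Vehicle 2 stood at 34.9 against 9.38 to 10.7 in Vehicle 1, 3 and 4. The lower Batf3 estimate in iMSBmal1KO was -0.62 with all libraries and -0.40 without Vehicle 4.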

How the results depend on the processing

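Under every alternative run, 0 member regions, genes or promoters were called by limma, and the smallest limma adjusted p over the 904 alternative values of the 54 named results was 0.118. Of these results 30 kept their direction throughout. The other 24 had estimates near 0 or a wide spread. With median-of-ratios factors the median log2 change of all regions was 0.01, not 0.12, and estimates turned to -0.11 for Fosb (strongest region and sum), -0.0396 (strongest region) and -0.0300 (promoter) for Maff, -0.0230 for Jund (region, sum and promoter), -0.00640 (sum and promoter) and -0.00763 (region) for Egr1, and -0.00787 and -0.0425 at the intergenic regions beginning at 85472127 and 85485733 near Fos. With total reads Fosb turned to -0.0483 (sum) and -0.0480 (region). With cyclic loess they turned to -0.12 for Fosb (both), -0.0358 (sum), -0.00873 (region) and -0.0748 (promoter) for Junb, -0.11 (promoter) and -0.0764 (region) for Maff, and -0.0107 and -0.0354 at the intergenic regions 85472127 and 85485733. With limma-voom, chosen after seeing the data, they turned to -0.11 for Fosb (both), -0.0492 (sum), -0.0428 (region) and -0.0431 (promoter) for Junb, -0.0293 (sum), -0.0290 (region) and -0.0279 (promoter) for Jund, -0.0115 (sum), -0.00973 (region) and -0.00968 (promoter) for Egr1, -0.0301 (region) and -0.0133 (promoter) for Maff, and -0.0776 at 85485733. A window of 2500 bp put the Atf3 promoter at 0.000973. Leaving out each library in turn gave ranges that crossed 0: -0.0609 to 0.0631 for the Atf3 promoter, -0.0924 to 0.0421 for its strongest region and -0.0551 to 0.0547 for its sum, -0.0207 to 0.18 for the Egr1 promoter and sum and -0.0198 to 0.17 for its region, -0.12 to 0.0573 for the Fosb promoter, -0.10 to 0.0969 for its region and -0.0983 to 0.0991 for its sum, -0.0717 to 0.40 for the Fosl1 region, -0.11 to 0.26 for the Junb promoter and sum and -0.13 to 0.25 for its region, -0.0216 to 0.16 for Jund (all 3), -0.0185 to 0.23 for the Maff strongest region, -0.44 to 0.00514 for the Maff region beginning at 79351539 and -0.0806 to 0.0251 for the Maff sum, -0.25 to 0.00201 and -0.0698 to 0.15 for the intergenic regions 85454958 and 85485733, and -0.20 to 0.0727 for the region over the Jun start. Calls over all regions numbered 110 and became 279 with median-of-ratios factors, 342 with cyclic loess, 195 without a filter and 644 with limma-voom, and 32 to 281 on leaving out a library. The 29 calls over genes became 51, 65 and 77 with median-of-ratios factors, loess and limma-voom, and 7 to 107 on leaving out a library. The 14 calls over promoters became 34, 27, 36 and 52 with median-of-ratios factors, total reads, loess and limma-voom, and 7 to 272 on leaving out a library. Deviations of same-numbered libraries correlated weakly (-0.06 to 0.14), which cannot exclude a pairing by replicate number. With the replicate number as a block, calls became 100 for regions, 116 for genes and 116 for promoters, with 0 among the members. The cause of these moves was not tested. The planned edgeR and DESeq2 fits were not run, since the deposited values are a scaled signal and not counts. The 38 member regions that were not tested had a signal of no more than 25.0 in any library, and weak regions were least certain in Vehicle 4, the shallowest library.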
